A study of Mus musculus with 6 samples.

Results

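Ubiquitin-conjugating enzymes, the E2s, were examined in sorted mouse bone marrow cells as the genes whose symbol begins with Ube2 in the deposited expression table. Of 25955 entries, 35 met this rule, and 2 more whose symbols carry -ps, the mark of a pseudogene, were left out. A level filter, RPKM of at least 1 in at least 3 of the 6 libraries, was passed by 31 of the 35 and by 11741 entries in all. RPKM divides the reads of a gene by its length and by the size of the library. Of the 35 genes, Ube2nl is annotated as a processed pseudogene, and Ube2cbp is an older name of Ube3d, which belongs to the E3 ligases, so both entered by name alone.

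The series compared by bulk RNA sequencing 3 libraries of CD51+ cells with 3 libraries of CD44+CD51- cells, both sorted from enzyme-digested bone marrow of C57BL/6 mice. CD51 is integrin alpha V, encoded by Itgav, and CD44 binds hyaluronan. The labels call the cells TNCs without spelling the term out, give no age, sex or treatment, and do not say whether replicates came from separate mice. Each p-value below therefore measures only the spread between these libraries. Itgav averaged 7.01 ± 2.43 RPKM in CD51+ and 0.677 ± 0.244 RPKM in CD44+CD51- (SD, n = 3 each here and below; limma adjusted p = 0.000389), in the direction of the sort. The cells were sorted on its protein, and the gene passed the level filter through CD51+ alone, so this p is no separate support. The library size behind the RPKM, estimated from the steps between low values, was 12196478 to 32490482 reads in CD51+ and 19293093 to 25563030 reads in CD44+CD51-. CD51+ libraries were rich in RNA of stromal and bone markers, with 15 genes summing to 29931 to 39542 RPKM, against 27.4 to 141 RPKM in CD44+CD51-. They were also rich in 15 neutrophil and monocyte markers, which summed to 89396 to 94484 RPKM, against 6402 to 30176 RPKM in CD44+CD51-. No gene of either list was at 0 in all libraries, and the part of these cell types in the differences below was not tested. In bulk samples, fewer cells of a type and less RNA per cell cannot be told apart.

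Ubiquitin, a small protein, is passed from an E1 activating enzyme to the active cysteine of an E2, and from there, with the help of an E3 ligase, to a lysine of a target protein. The E2 often decides which linkage joins the next ubiquitin to the last, and with it whether the target goes to the proteasome, to DNA repair or to signalling. A few E2s carry related modifiers in place of ubiquitin, among them NEDD8 and ISG15. In bone marrow the system is known for cell division and for the clearing of proteins as red cells mature.

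The promoters of 4 members that differ in their role or their level are shown before the values, from the RefSeq table on GRCm38.p6, as 250 bases before to 50 bases after the start. Ube2c and Ube2t serve dividing cells, and capitals mark CCAAT, the CCAAT box, and TTTGAA, the core of the cell cycle genes homology region, on either strand. In Ube2c, a CCAAT and an ATTGG, its reverse, overlap. Ube2c is at chr2:164769679-164769978, plus strand, and Ube2t at chr1:134962315-134962614, plus strand.
Ube2c: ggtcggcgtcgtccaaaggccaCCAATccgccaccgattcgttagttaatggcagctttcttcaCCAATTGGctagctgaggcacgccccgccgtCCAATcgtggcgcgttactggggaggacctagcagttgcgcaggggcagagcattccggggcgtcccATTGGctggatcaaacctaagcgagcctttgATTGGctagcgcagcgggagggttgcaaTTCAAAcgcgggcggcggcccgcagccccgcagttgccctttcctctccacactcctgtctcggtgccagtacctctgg
Ube2t: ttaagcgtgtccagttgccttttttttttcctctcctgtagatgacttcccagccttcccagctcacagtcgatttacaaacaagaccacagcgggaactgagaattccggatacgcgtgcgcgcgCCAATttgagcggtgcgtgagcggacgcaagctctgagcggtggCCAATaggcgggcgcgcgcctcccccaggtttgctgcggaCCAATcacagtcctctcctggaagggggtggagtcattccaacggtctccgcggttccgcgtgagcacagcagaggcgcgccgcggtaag

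Ube2e1 and Ube2e2 are paralogs on chromosome 14 that moved in opposite directions, and capitals mark GGGCGG, the GC box, on either strand. The Ube2e1 window is chr14:18331795-18332094 and that of Ube2e2 chr14:18893722-18894021, both on the minus strand, the second from 1 of 2 starts listed for its gene.
Ube2e1: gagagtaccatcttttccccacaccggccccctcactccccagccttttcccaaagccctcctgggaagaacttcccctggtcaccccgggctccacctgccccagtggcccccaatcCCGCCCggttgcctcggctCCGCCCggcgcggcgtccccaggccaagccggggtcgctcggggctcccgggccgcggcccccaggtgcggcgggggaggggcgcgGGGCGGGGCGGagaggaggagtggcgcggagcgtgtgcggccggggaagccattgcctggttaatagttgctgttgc
Ube2e2: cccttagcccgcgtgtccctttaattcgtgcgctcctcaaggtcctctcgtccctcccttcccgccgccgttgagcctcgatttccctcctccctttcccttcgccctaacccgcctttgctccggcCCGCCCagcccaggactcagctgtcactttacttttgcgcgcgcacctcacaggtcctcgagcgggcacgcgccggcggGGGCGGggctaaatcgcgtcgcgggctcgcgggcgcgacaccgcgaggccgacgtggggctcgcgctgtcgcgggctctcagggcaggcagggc

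Ube2c holds 6 CCAAT matches and 1 TTTGAA match, and Ube2t holds 3 CCAAT matches and 0 of TTTGAA. Among all 27025 promoters in the table, 37.9% hold CCAAT at least once and 3.56% hold it 3 or more times, while 18.1% hold TTTGAA. Ube2e1 holds 4 GGGCGG matches, of which 2 share a base, and Ube2e2 holds 2, in a table where 35.9% of promoters hold at least 1. The table had a promoter for 27 of the 35 genes, and the rest, among them Ube2d2a, Ube2e3, Ube2g2, Ube2nl, Ube2o, Ube2v2 and Ube2w, were not in it. Of the 27, 7 (25.9%) held CCAAT, 4 (14.8%) held TTTGAA and 20 (74.1%) held GGGCGG. A match is a description of these letters and not a binding site.

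Of the 31 Ube2 genes tested, Ube2cbp among them, 3 were higher in CD51+, 6 were lower, and the rest did not pass the test. Ube2e2, Ube2w and Ube2d1, which start or prime ubiquitin chains with many ligases, were higher by 1.70-fold to 5.03-fold in mean RPKM. The role as a group did not move one way. Of its 7 members tested, 3 were higher, 1, Ube2e1, was lower and 3 did not pass, with a median log2 change of -0.36. Among the lower ones, Ube2m (NEDD8), Ube2t (Fanconi pathway), Ube2e1, Ube2j2 and Ube2g1 were lower by 1.47-fold to 1.69-fold. The changes were tested by limma on log2(RPKM + 1), which understates the change of low genes, as CD51+ minus CD44+CD51-, with Benjamini-Hochberg adjustment over all 11741 genes at 0.05.

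The 3 higher members were 9.68% of the 31 tested, where 24.1% of all genes tested were higher, and the 6 lower ones were 19.4%, where 29.7% of all genes were lower. With the replicate number as a block, 5 members (16.1%) were higher, beside 27.8% of all genes, and 15 (48.4%) were lower, beside 41.3%. Groups did not overlap for 3 members above and 8 below (25.8%), where 26.1% and 37.5% of all genes lay wholly above or below. Without CD51+ library 1, 5 members were higher and 5 lower, beside 1567 and 2998 of all genes. Without CD51+ library 2, 1 member was higher and 4 were lower, beside 1225 and 2336 of all genes. With all 6 libraries, 2825 of all genes were higher and 3484 were lower. The median log2 change was -0.36 over the 31 members and -0.23 over all genes. A change beyond 1 on the log2 scale was found for 2 members (6.45%), Ube2e2 and Ube2w, against 26.6% of all genes.

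The balance between higher and lower calls depended on the scaling of the libraries. Library factors of the trimmed-mean (TMM) type, computed from the RPKM, moved the median of all genes by 0.32 on the log2 scale. With them, 8 of 32 members tested were higher, the 3 above with Ube2b, Ube2h, Ube2o, Ube2r2 and Ube2ql1. Ube2ql1, not detected in CD44+CD51-, passed the level filter here only through its scaled CD51+ values. Its call thus followed from the filter and is no separate support. With the same factors 0 members were lower, although the 6 lower members kept a negative change. Over all genes, 3691 were higher and 1564 were lower with these factors, against 2825 and 3484 as deposited. Higher calls were 44.8% of all calls as deposited, 70.2% with TMM-type scaling and 34.6% with quantile normalization. The adjusted p with TMM-type scaling is therefore given beside each lower call of a named Ube2 gene.

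**Figure D1:**
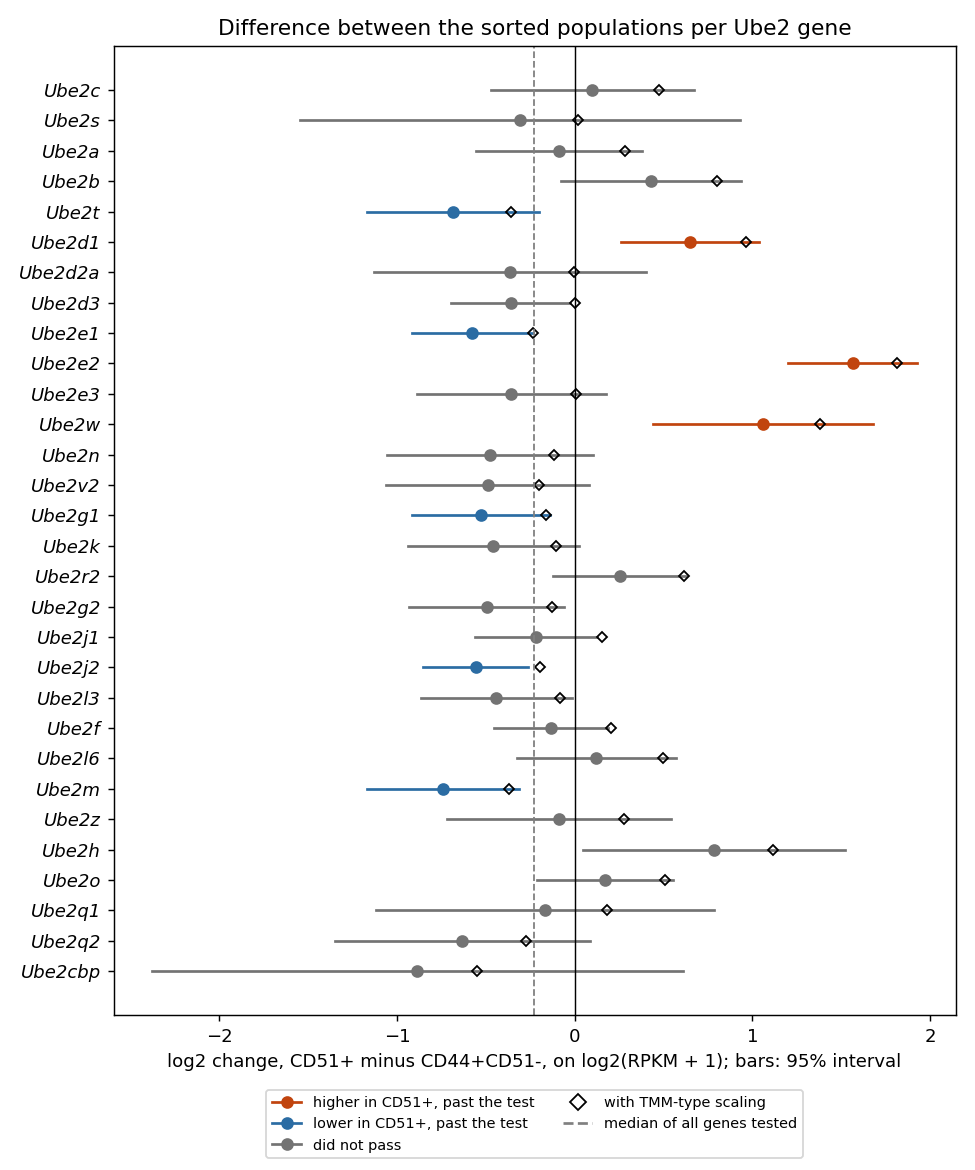
Log2 change of the tested Ube2 genes named in the text, as CD51+ over CD44+CD51- from log2(RPKM + 1), with 95% intervals; diamonds show TMM-type scaling and the dashed line the median of all genes tested (-0.23). Ube2e2 stands farthest to the right at 1.57, while the genes called lower lie between -0.74 and -0.53.

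**Figure D2:**
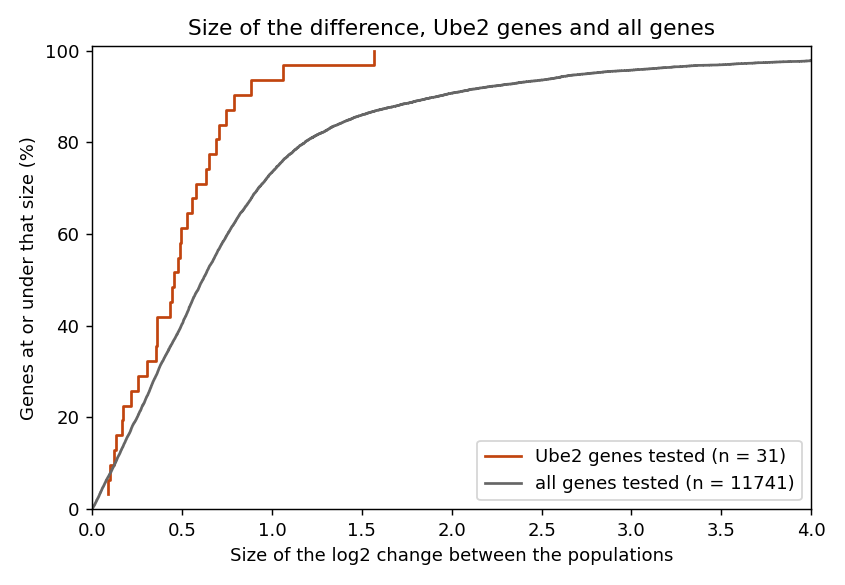
Cumulative share of genes (%) by the absolute size of the log2 change, for the 31 Ube2 genes and the 11741 genes tested. Of the Ube2 genes, 6.45% lie beyond 1, against 26.6% of all genes.

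Summed over the 35 members, Ube2cbp and Ube2nl included, the transcripts came to 787, 886 and 997 RPKM in CD51+ libraries 1, 2 and 3. In CD44+CD51- libraries 1, 2 and 3 they came to 1029, 1094 and 965 RPKM. These sums overlapped. Of each library's total RPKM, they were 0.133, 0.145 and 0.162% in CD51+ and 0.212, 0.212 and 0.213% in CD44+CD51-, with no overlap. The totals themselves differed, at 589810 to 615189 RPKM in CD51+ and 453600 to 516205 RPKM in CD44+CD51-. The share therefore depends on all other genes as well. Ube2c, Ube2l6 and Ube2m were the 3 most abundant members in each of the 6 libraries and made up 38.5 ± 2.78% of the family's RPKM in CD51+ and 37.6 ± 1.96% in CD44+CD51-. Ube2m led in all 3 CD44+CD51- libraries, Ube2l6 led in CD51+ library 1, and Ube2c led in CD51+ libraries 2 and 3. Values for 3 libraries are given in the order 1, 2, 3 from here on.

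**Figure D3:**
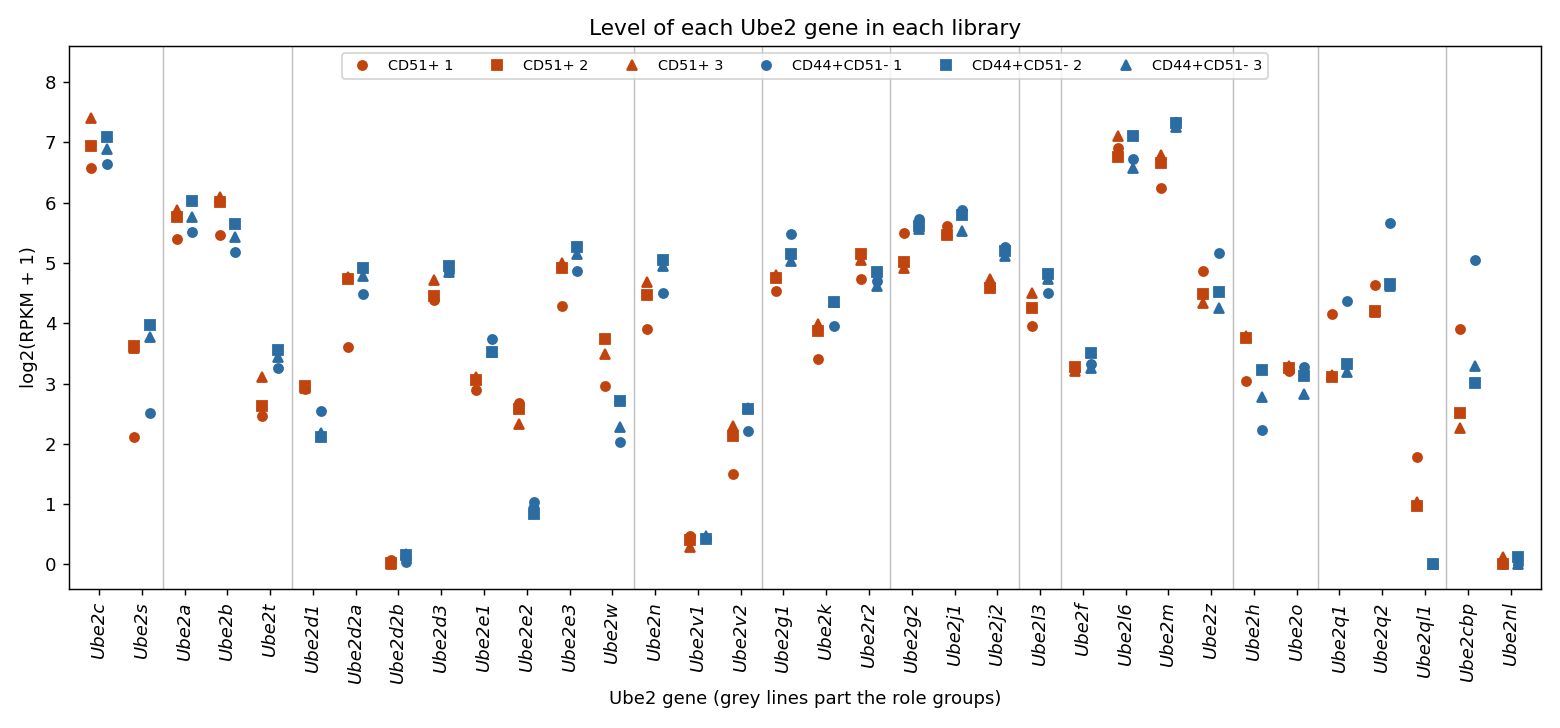
Level of the Ube2 genes named in the text as log2(RPKM + 1) in each of the 3 CD51+ and 3 CD44+CD51- libraries, grouped by role. Ube2c, Ube2l6 and Ube2m stand highest, and Ube2d2b, Ube2nl and Ube2v1 lie near 0 in both populations.

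Among the E2s that start chains, Ube2e2 (chromosome 14, 18573575 to 18894267, minus strand) had the largest difference of the 31 members tested. Ube2e2, which carries the long N-terminal extension of its subfamily, was at 5.42, 4.99 and 4.03 RPKM in CD51+, against 1.05, 0.795 and 1.03 RPKM in CD44+CD51-. Every CD51+ library lay above every CD44+CD51- library. Its means were 4.81 ± 0.713 RPKM in CD51+ and 0.957 ± 0.141 RPKM in CD44+CD51-, a ratio of 5.03, with a log2 change of 1.57 ± 0.15 (SE; adjusted p = 0.000268). The adjusted p stayed between 0.000123 and 0.00904 under the alternatives in which it was tested.

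Ube2e1 (chromosome 14, 18282722 to 18331859, minus strand), a close paralog, went the other way. It was at 6.4, 7.36 and 7.64 RPKM in CD51+ and 12.4, 10.5 and 10.5 RPKM in CD44+CD51-, with no overlap. The log2 change was -0.58 ± 0.14 (adjusted p = 0.0139), with an adjusted p of 0.160 after TMM-type scaling. Of its exonic length, 16.1% overlaps Nkiras1 on the opposite strand, and the library kit does not keep strand, so reads of the 2 genes there cannot be told apart. Ube2e3, the third paralog and the most abundant, averaged 26.3 ± 6.81 RPKM in CD51+ and 33.3 ± 4.61 RPKM in CD44+CD51- (adjusted p = 0.217, and 0.0419 with the replicate block).

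Within the Ube2e subfamily, the share of Ube2e2 was 17.9, 12 and 9.43% of the summed RPKM in CD51+ and 2.51, 1.63 and 2.25% in CD44+CD51-. The share of Ube2e1 was 18.9 ± 1.93% in CD51+ and 24.7 ± 4.32% in CD44+CD51-. Neither share overlapped between the populations, while Ube2e3 held the largest share in all 6 libraries, 61.0 to 72.7% in CD51+ and 67.9 to 76.8% in CD44+CD51-.

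Ube2d1 (chromosome 10, 71254980 to 71285262, minus strand) belongs to the subfamily known as UbcH5, which works with many RING ligases. It was at 6.51, 6.81 and 6.56 RPKM in CD51+ and 4.86, 3.34 and 3.51 RPKM in CD44+CD51-. The populations did not overlap, and the log2 change was 0.65 ± 0.16 (adjusted p = 0.0140). The adjusted p was 0.0679 with quantile normalization and 0.05001 to 0.0578 without CD51+ library 2, CD44+CD51- library 2 or CD44+CD51- library 3.

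The more abundant members of that subfamily, Ube2d2a and Ube2d3, did not pass the test. Ube2d3 averaged 22.1 ± 2.92 RPKM in CD51+ and 28.5 ± 1.25 RPKM in CD44+CD51-, without overlap (adjusted p = 0.0678, and 0.0385 with the replicate block). Ube2d2a averaged 21 ± 8.48 RPKM in CD51+ and 25.8 ± 3.97 RPKM in CD44+CD51- (adjusted p = 0.370), and Ube2d2b stayed at or under 0.123 RPKM in all libraries and was not tested. Ube2d1 thus made up 17.2, 12.8 and 11.3% of the summed RPKM of Ube2d1, Ube2d2a and Ube2d3 in CD51+, against 8.95, 5.34 and 6.08% in CD44+CD51-. Reads that fit more than 1 of these near-identical genes may have been split or dropped in counting, and the rule for them is not given in the sources used here.

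**Figure D4:**
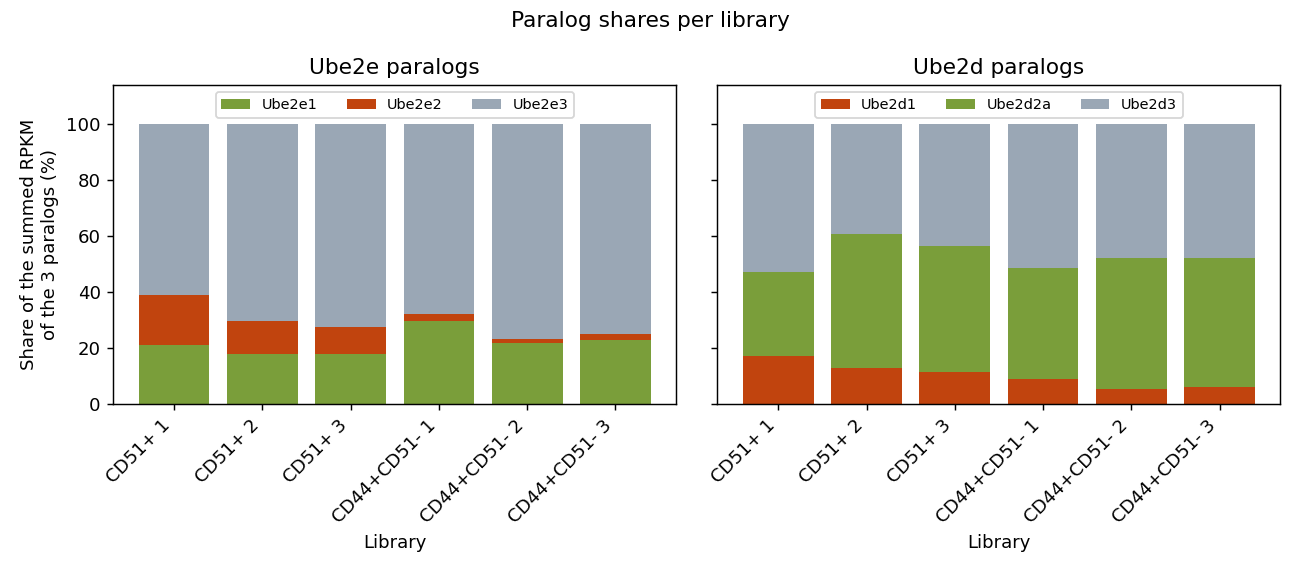
Share (%) of each paralog in the summed RPKM of Ube2e1, Ube2e2 and Ube2e3 (left) and of Ube2d1, Ube2d2a and Ube2d3 (right) in each library, CD51+ first. The Ube2e2 share is 9.43 to 17.9% in CD51+ and 1.63 to 2.51% in CD44+CD51-.

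Ube2w (chromosome 1, 16540790 to 16619489, minus strand) attaches ubiquitin to the N-terminus of proteins rather than to a lysine. It was at 6.80, 12.4 and 10.3 RPKM in CD51+ and 3.09, 5.53 and 3.87 RPKM in CD44+CD51-. The lowest CD51+ library was above the highest CD44+CD51- library, and the number 1 library was the lowest of both populations. The log2 change was 1.06 ± 0.26 (adjusted p = 0.0128, and 0.000386 with the replicate block), but the adjusted p was 0.0533 without CD51+ library 2 and 0.05003 without CD51+ library 3.

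Among E2s of ubiquitin-like modifiers, Ube2m was lower in CD51+, and Ube2f, Ube2l6 and Ube2z did not pass the test. Ube2m (chromosome 7, 13035120 to 13038275, minus strand) carries NEDD8 to cullins. It was the most abundant Ube2 gene of CD44+CD51- cells, with E2s under other names not counted. It was at 74.4, 100 and 110 RPKM in CD51+, all below the 161, 158 and 153 RPKM in CD44+CD51-. Its log2 change was -0.74 ± 0.18 (adjusted p = 0.0121), with an adjusted p of 0.0839 after TMM-type scaling.

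Ube2f, the other NEDD8 E2, averaged 8.42 ± 0.219 RPKM in CD51+ and 9.35 ± 0.927 RPKM in CD44+CD51- (log2 change -0.13, 95% interval -0.46 to 0.19, adjusted p = 0.437). The ratio of Ube2m to Ube2f was 8.86, 11.6 and 13.4 in CD51+ and 17.8, 15.3 and 17.8 in CD44+CD51-, without overlap.

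Ube2l6 (chromosome 2, 84798828 to 84810335, plus strand), which carries the interferon-induced modifier ISG15, was among the 3 most abundant members without a detectable difference. It was at 119, 107 and 137 RPKM in CD51+ and 105, 137 and 94.6 RPKM in CD44+CD51-. The ranges overlapped, with a log2 change of 0.12 and a 95% interval of -0.33 to 0.57 (adjusted p = 0.607). Ube2z, which takes ubiquitin and FAT10 from the E1 Uba6, averaged 22.9 ± 4.81 RPKM in CD51+ and 25 ± 8.84 RPKM in CD44+CD51- (adjusted p = 0.799).

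For the anaphase-promoting complex, the ligase that triggers the exit from mitosis, Ube2c starts the chain and Ube2s extends it. Ube2c (chromosome 2, 164769898 to 164778822, plus strand) was the most abundant Ube2 gene of CD51+ cells by mean, with E2s under other names not counted. It was at 94.7, 122 and 169 RPKM in CD51+ and 98.9, 135 and 118 RPKM in CD44+CD51-. The 2 ranges overlapped (log2 change 0.10, 95% interval -0.47 to 0.67, adjusted p = 0.742). Tnnc2 on the opposite strand overlaps 22.8% of its exonic length.

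Ube2s was at 3.35, 11.3 and 11 RPKM in CD51+ and 4.71, 14.6 and 12.7 RPKM in CD44+CD51-. In both populations the number 1 library stood far below the other two, and the difference between populations did not pass (log2 change -0.31, 95% interval -1.55 to 0.93, adjusted p = 0.639). Of 20 mitosis genes, 0 were higher and 10 were lower in CD51+, beside 24.1% and 29.7% of all genes. With TMM-type scaling none of the 10 lower calls was kept (adjusted p = 0.108 to 0.830), and 1 of the 20, Nusap1, was higher (log2 change 0.62, adjusted p = 0.0344). As deposited, the list summed to 773 to 1108 RPKM in CD51+ and 1176 to 1435 RPKM in CD44+CD51-. Cdc20, the activator that the complex binds in mitosis, averaged 110 ± 13.1 RPKM in CD51+ and 184 ± 15.4 RPKM in CD44+CD51- (adjusted p = 0.00693, and 0.0645 after TMM-type scaling).

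In DNA repair, Ube2t (chromosome 1, 134962565 to 134974162, plus strand) joins ubiquitin to FANCD2 together with the ligase FANCL. Ube2t was at 4.5, 5.19 and 7.62 RPKM in CD51+ and 8.55, 10.8 and 9.87 RPKM in CD44+CD51-. All CD51+ libraries lay below all CD44+CD51- libraries, with a log2 change of -0.69 ± 0.20 (adjusted p = 0.0262). The adjusted p was 0.182 after TMM-type scaling and 0.0675 to 0.0905 without CD51+ library 1 or 2 or CD44+CD51- library 2 or 3. Its partners Fancl (9.75 ± 2.61 RPKM in CD51+ and 17.4 ± 4.66 RPKM in CD44+CD51-, adjusted p = 0.0434, and 0.218 after TMM-type scaling) and Fancd2 (3.71 ± 1.63 RPKM in CD51+ and 7.85 ± 1.41 RPKM in CD44+CD51-, adjusted p = 0.0303, and 0.1085 after TMM-type scaling) were also lower as deposited. Fancl was named as the partner of Ube2t and not by size of change. The mitosis list moved with these as deposited, without a lower call after TMM-type scaling, and its part was not tested.

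Ube2a and Ube2b are the mammalian forms of yeast RAD6 and mark histone H2B and PCNA. Ube2a was at 41.0, 53.2 and 58.1 RPKM in CD51+ and 44.5, 64.2 and 53.4 RPKM in CD44+CD51-, with overlap (log2 change -0.09, adjusted p = 0.726). Ube2b was at 43.3, 63.8 and 67.0 RPKM in CD51+ and 35.5, 49.3 and 42.3 RPKM in CD44+CD51-. Its ranges overlapped across numbers, yet within each number CD51+ was higher (log2 change 0.43, adjusted p = 0.128, and 0.0179 with the replicate block). The ratio of Ube2b to Ube2a was 1.06, 1.20 and 1.15 in CD51+ and 0.796, 0.768 and 0.793 in CD44+CD51-, with no overlap.

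Among the E2s that build lysine-48 chains, the mark for the proteasome, Ube2g1 extends chains on targets of cullin-RING ligases. Ube2g1 was at 22.2, 26.0 and 26.9 RPKM in CD51+ and 43.7, 34.7 and 31.9 RPKM in CD44+CD51-, with no overlap. Its log2 change was -0.53 ± 0.16 (adjusted p = 0.0313), but the adjusted p was 0.375 after TMM-type scaling and 0.0576 to 0.0822 in 5 of the 6 fits that left out 1 library, all but that without CD44+CD51- library 3. Ube2k averaged 12.7 ± 2.72 RPKM in CD51+ and 17.7 ± 2.83 RPKM in CD44+CD51- (adjusted p = 0.0978, and 0.0103 with the replicate block). Ube2r2, a form of CDC34, did not pass as deposited, at 30.7 ± 4.60 RPKM in CD51+ and 25.5 ± 2.23 RPKM in CD44+CD51- (adjusted p = 0.214, and 0.00792 after TMM-type scaling).

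Ube2g2, Ube2j1 and Ube2j2 serve the removal of faulty proteins from the endoplasmic reticulum, where Ube2j1 and Ube2j2 are anchored in the membrane. Ube2j2 was at 23.2, 22.9 and 25.5 RPKM in CD51+, all below the 37.5, 35.8 and 33.5 RPKM in CD44+CD51- (log2 change -0.56 ± 0.13, adjusted p = 0.00887, and 0.212 after TMM-type scaling). Ube2j1 averaged 44.9 ± 2.57 RPKM in CD51+ and 52.6 ± 6.59 RPKM in CD44+CD51- (adjusted p = 0.240). Ube2g2 averaged 34.9 ± 8.26 RPKM in CD51+ and 48.9 ± 2.91 RPKM in CD44+CD51-, with no overlap (adjusted p = 0.0559, and 0.0119 with the replicate block). The ratio of Ube2j1 to Ube2j2 was 1.89 ± 0.165 in CD51+ and 1.47 ± 0.108 in CD44+CD51-, without overlap.

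Ube2n, the E2 that builds lysine-63 chains for signalling and repair together with an inactive partner, was at 14.1, 21.1 and 24.8 RPKM in CD51+ and 21.6, 31.9 and 30.0 RPKM in CD44+CD51-. The ranges overlapped, while within each number CD51+ was lower (log2 change -0.48, adjusted p = 0.140, and 0.0109 with the replicate block). Its partner Ube2v2 followed at 3.04 ± 1.09 RPKM in CD51+ and 4.56 ± 0.779 RPKM in CD44+CD51- (adjusted p = 0.127, and 0.0191 with the block). The ratio of Ube2n to Ube2v2 was 6.75 ± 0.831 in CD51+ and 6.09 ± 0.260 in CD44+CD51-, with overlap. Ube2v1, the other partner, was at 0.316 ± 0.0830 RPKM in CD51+ and 0.361 ± 0.0178 RPKM in CD44+CD51- and was not tested. The annotation gives 61.5% of its exonic length also to Gm20431 on the same strand, so the level of Ube2v1 is uncertain.

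Ube2l3, which serves HECT and RBR ligases, averaged 18.1 ± 3.51 RPKM in CD51+ and 24.7 ± 2.81 RPKM in CD44+CD51- (adjusted p = 0.0746, and 0.0157 with the replicate block). Ydjc on the opposite strand covers 28.6% of its exonic length.

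Ube2h and Ube2o are known for roles in maturing red cells, where Ube2h works with the CTLH ligase and Ube2o clears ribosomal proteins. Ube2h was at 7.27, 12.5 and 12.9 RPKM in CD51+ and 3.69, 8.39 and 5.87 RPKM in CD44+CD51-. CD51+ was higher within each number, although CD51+ library 1 fell inside the range of CD44+CD51- (log2 change 0.79, adjusted p = 0.0692, and 0.00207 with the replicate block). Ube2o was at 8.26, 8.54 and 8.77 RPKM in CD51+ and 8.73, 7.73 and 6.12 RPKM in CD44+CD51-, with overlap (log2 change 0.17, 95% interval -0.21 to 0.55, adjusted p = 0.394, and 0.0255 after TMM-type scaling). Of 20 erythroid genes, 5 were higher and 10 were lower in CD51+, beside 24.1% and 29.7% of all genes. With TMM-type scaling 6 of the 20 were higher and 8 were lower. Their sums were 10602 to 16350 RPKM in CD51+ and 10248 to 15297 RPKM in CD44+CD51-, and the part of red cell content was not tested.

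Ube2q1 and Ube2q2, large E2s of one subfamily, followed the library number. Ube2q1 was at 16.8, 7.60 and 7.83 RPKM in CD51+ and 19.7, 9.06 and 8.14 RPKM in CD44+CD51- (adjusted p = 0.744). Ube2q2 was at 23.7, 17.4 and 17.3 RPKM in CD51+ and 49.5, 24.1 and 23.5 RPKM in CD44+CD51- (adjusted p = 0.117, and 0.00770 with the replicate block). Library 1 was the highest of its population for both genes.

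Ube2ql1, a little-studied relative, was the one member seen in a single population. It was at 2.45, 0.953 and 1.06 RPKM in CD51+ and was listed at 0 in all 3 CD44+CD51- libraries. The CD51+ values correspond to an estimated 69 to 83 reads, and 3 reads would have given 0.0439 to 0.0582 RPKM in the CD44+CD51- libraries. It missed the level filter and has no test as deposited. Ube2nl, the pseudogene, stayed at or under 0.0904 RPKM in all libraries. Ube2cbp, the E3 entry, was at 14.0, 4.72 and 3.80 RPKM in CD51+ and 32.1, 7.03 and 8.78 RPKM in CD44+CD51- (adjusted p = 0.270, and 0.00203 with the replicate block).

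In both populations many members were highest or lowest in library 1, as were many of all genes tested. Library 1 was the highest of its population in both for 7 of the 31 members tested (22.6%), beside 19.4% of all genes, and the lowest in both for 13 (41.9%), beside 34.8%. Ube2s in library 1 was at 0.300 of the mean of libraries 2 and 3 in CD51+ and at 0.345 in CD44+CD51-. Ube2cbp stood at 3.29 times that mean in CD51+ and 4.06 times in CD44+CD51-. The labels do not say what the numbers mark.

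**Figure D5:**
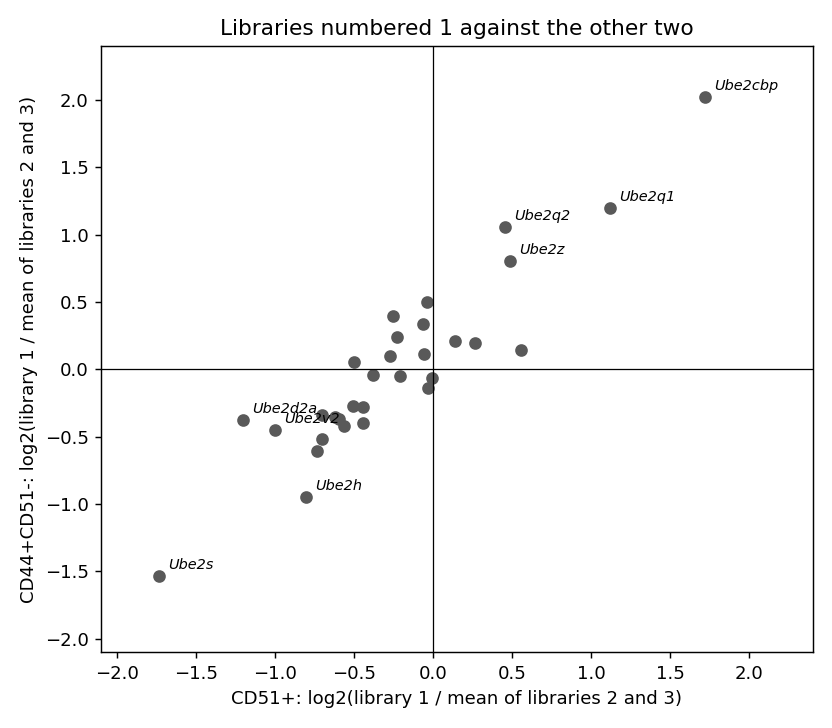
Log2 ratio of library 1 to the mean of libraries 2 and 3 for each tested Ube2 gene, CD44+CD51- on the vertical axis and CD51+ on the horizontal axis. Ube2s lies lowest in both populations (ratios 0.300 in CD51+ and 0.345 in CD44+CD51-) and Ube2cbp highest.

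The other steps of conjugation were read from 11 lists of 169 genes, chosen with earlier results of these data known, of which 163 were tested. In CD51+, 11 of them (6.7%) were higher and 63 (38.7%) were lower, beside 24.1% and 29.7% of all genes. With TMM-type scaling 23 were higher and 14 were lower, beside 3691 and 1564 of all genes. With the replicate block, 16 were higher and 99 were lower, beside 27.8% and 41.3% of all genes. Higher genes numbered 4 without CD51+ library 2 or 3 or CD44+CD51- library 3 and 5 without CD44+CD51- library 2. Beside them, 1225, 1358, 2386 and 2739 of all genes were higher in these fits, in that order. Lower ones numbered 41 without CD44+CD51- library 2 and 38 without CD44+CD51- library 3, beside 2482 and 2459 of all genes.

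Upstream of the E2s, 5 of 10 E1 genes were lower and 0 were higher, beside 29.7% and 24.1% of all genes. With TMM-type scaling 2 E1 genes were lower and 1 was higher. Sae1 and Uba2, which form the E1 of SUMO, averaged 137 ± 15.7 and 46.7 ± 4.43 RPKM in CD51+, against 269 ± 18.6 and 91.2 ± 7.73 RPKM in CD44+CD51- (adjusted p = 0.00249 and 0.00166). Uba1, the main E1 of ubiquitin, averaged 88.7 ± 0.885 RPKM in CD51+ and 143 ± 8.83 RPKM in CD44+CD51- (adjusted p = 0.00472, and 0.0794 after TMM-type scaling). Sae1 and Uba2 stayed below the threshold with that scaling (adjusted p = 0.0157 and 0.0101). The SUMO list, which holds both, had 6 of 17 lower as deposited, beside 29.7% of all genes. It had 2 lower with TMM-type scaling and 14 with the replicate block, the latter beside 41.3% of all genes. In each of these fits 1 gene was higher, which as deposited was the SUMO ligase Pias3 (4.60 ± 0.844 RPKM in CD51+ and 2.22 ± 0.386 RPKM in CD44+CD51-, adjusted p = 0.00810).

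Of 13 modifier genes, 4 were lower and 1 was higher, beside 29.7% and 24.1% of all genes. With TMM-type scaling 0 were lower, and with the replicate block 7 were, the latter beside 41.3% of all genes. Among the modifiers lower as deposited were Sumo3 (80.4 ± 5.17 RPKM in CD51+ and 141 ± 21.8 RPKM in CD44+CD51-, adjusted p = 0.00580) and Urm1 (adjusted p = 0.0299). Ubb, a polyubiquitin gene, was the higher one, at 560 ± 48.6 RPKM in CD51+ and 394 ± 14.9 RPKM in CD44+CD51- (adjusted p = 0.0437). Of 7 E2-like enzymes under other names, Aktip and the autophagy enzyme Atg10 were higher (log2 changes 1.06 and 0.56) and the giant E2 Birc6 was lower (log2 change -0.37), against 4 higher and 0 lower with TMM-type scaling.

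Among ligases, 0 genes of the anaphase-promoting complex were higher and 7 of 16 were lower, beside 24.1% and 29.7% of all genes. With TMM-type scaling 1 of these genes was higher and 1 was lower. Anapc1 was at 9.18 ± 2.24 RPKM in CD51+ and 18.4 ± 1.57 RPKM in CD44+CD51- (adjusted p = 0.00594) and Anapc7 at a log2 change of -0.64 (adjusted p = 0.00845). The cullin-RING core, the partners of Ube2m, Ube2g1 and Ube2r2, had 7 of 17 lower and 0 higher. It had 2 lower and 1 higher after TMM-type scaling. With the replicate block 11 were lower, beside 41.3% of all genes. Cul4a averaged 25.8 ± 0.755 RPKM in CD51+ and 49.3 ± 5.40 RPKM in CD44+CD51- (adjusted p = 0.00167), and its adaptor Ddb1 averaged 109 ± 17.8 RPKM in CD51+ and 193 ± 11.7 RPKM in CD44+CD51- (adjusted p = 0.00600). Cul2 had a log2 change of -0.69 (adjusted p = 0.00925).

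The list of DNA damage and histone H2B ubiquitination holds ligases, their partners and targets. It had 15 of 20 lower and 0 higher, beside 29.7% and 24.1% of all genes, and 5 lower and 0 higher with TMM-type scaling. Its 3 called genes of largest change were Fance (9.05 ± 1.79 RPKM in CD51+ and 21.6 ± 9.03 RPKM in CD44+CD51-, adjusted p = 0.0145), Fancd2 (above) and Fancf (log2 change -0.95, adjusted p = 0.00419). HECT and RBR ligases, the partners of Ube2l3, had 8 of 24 lower and 2 higher, beside 29.7% and 24.1% of all genes. They had 0 lower and 6 higher after TMM-type scaling. With the replicate block 13 were lower, beside 41.3% of all genes. Smurf1, a ligase of BMP signalling, was at 3.50 ± 0.559 RPKM in CD51+ and 1.11 ± 0.289 RPKM in CD44+CD51- (adjusted p = 0.00201), while Rbck1 and Ube3b had log2 changes of -0.97 and -0.86. For the endoplasmic reticulum route, 2 of 13 were lower, Nploc4 and Vcp (log2 changes -0.76 and -0.59), and Derl2 was higher (0.55). That list had 0 lower and 2 higher with TMM-type scaling. With the replicate block it had 7 lower and 3 higher, beside 41.3% and 27.8% of all genes.

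Interferon and ISG15 genes, the setting of Ube2l6, had 4 of 14 higher and 1 lower, beside 24.1% and 29.7% of all genes. They had 5 higher and 0 lower after TMM-type scaling, beside 3691 and 1564 of all genes. With the replicate block 7 were higher, beside 27.8% of all genes. Ifit3 averaged 8.59 ± 1.78 RPKM in CD51+ and 0.310 ± 0.193 RPKM in CD44+CD51- (adjusted p = 4.68e-05). It passed the level filter through CD51+ alone, the group where it is high, so its p is no separate support. Ifit1 had a log2 change of 1.65 (adjusted p = 0.00110), and the ligase Trim25 was lower (log2 change -0.62, adjusted p = 0.0230). Isg15 itself, named as the modifier that Ube2l6 carries, averaged 27.4 ± 14.7 RPKM in CD51+ and 13.8 ± 7.95 RPKM in CD44+CD51- (adjusted p = 0.201, and 0.00177 with the replicate block). Deubiquitinases, which take ubiquitin off again, had 11 of 19 lower and 0 higher, beside 29.7% and 24.1% of all genes. With TMM-type scaling 4 of them were lower and 1 was higher. Usp10 was at 19.8 ± 0.591 RPKM in CD51+ and 53.0 ± 8.99 RPKM in CD44+CD51- (adjusted p = 0.000517). Usp15 and Uchl3 both had a log2 change of -0.90. After TMM-type scaling, the adjusted p of Sumo3, Urm1, Birc6, Anapc7, Cul2, Fance, Fancd2, Rbck1, Ube3b, Nploc4, Vcp, Trim25 and Uchl3 lay between 0.0528 for Uchl3 and 0.474 for Birc6. It lay between 0.00162 for Usp10 and 0.0439 for Ddb1 among Anapc1, Cul4a, Ddb1, Fancf, Usp10 and Usp15.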

How the data were processed

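RNA of 3 CD51+ and 3 CD44+CD51- libraries was purified with a micro-scale column kit and made into libraries with Nextera XT, which does not keep strand, per the labels. The authors deposited 1 table of RPKM values, reads scaled by gene length and library size. Build GRCm38 and edgeR 3.16.5 are named per the submitters' processing notes; the aligner, read counter, annotation and library-size basis are not given in the sources used here. Of 25955 entries, 17 repeated a symbol, for which the one of highest mean was kept, and 26 had symbols turned into dates.

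Genes at RPKM of 1 or more in 3 of 6 libraries were tested on log2(RPKM + 1), a pseudocount of 1, with limma 3.58.1 (R 4.3.3), modelling the variance by intensity. Tests were two-sided, and p-values were adjusted after Benjamini-Hochberg at 0.05. The procedure was tested on simulated data. Other settings were a pseudocount of 0.1, no filter, a mean RPKM of at least 5, TMM-type and quantile scaling, no trend, a replicate block, and each library left out. Ube2 members were chosen by symbol, and these and all gene lists were chosen with earlier results of these data known. Values per library are given for called members at least 1.5-fold apart, the 5 most abundant, and Ube2c, Ube2h, Ube2l6, Ube2n, Ube2o, Ube2s and Ube2t; other members appear by role. From each pathway list, the 3 called genes of largest change are named. A few genes are counted but not reported by name here, nor drawn by name. Other genes named with values, and members given in full beyond this rule, were chosen after their values were seen.

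Same-numbered libraries deviated together from their group means, with correlations across genes of 0.6194, 0.2864 and 0.5155, all over 0.1. The numbers were therefore taken to pair libraries in the replicate block only, and the main test was unpaired. The labels do not say what the numbers mark. Adjusted p-values with the block are no separate support, as the pairing was read from the same values. The pairing comes from the data and not from the labels, and CD51+ library 2 correlated slightly better with CD44+CD51- library 3 (0.3238).

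Depth was estimated from steps between low RPKM values with GENCODE M21 exon lengths; 88.9 to 91.0% of values of up to 20 reads came within 0.05 of a whole number. Reads behind an entry and the level of 3 reads rest on this estimate and cover counting error only. No count test was run. Gene positions and overlaps are from GENCODE M21 on GRCm38. Elob, Eloc and Ufd1 were matched by older symbols, and March6 and Ly76 were not matched. Endothelial markers had 0 higher and 2 lower of 5 tested, and early B cell markers 0 higher and 9 lower of 10. Sorting and gate antigens had 2 higher of 4, Itgav and Ptprc. Of all genes tested, 24.1% were higher and 29.7% were lower.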

Additional observations from a re-analysis of the deposited data

How the results depend on the processing

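Of the 9 calls, Ube2e2 alone passed under every setting tried in which it was tested. Called members higher and lower numbered 8 and 0 with TMM-type scaling, 5 and 15 with the replicate block, and 5 and 12 with both libraries numbered 1 left out, a setting chosen after seeing the data. The replicate block ended no call of a member. Leaving out 1 library gave 1 to 5 higher and 4 to 7 lower, with 1 and 4 without CD51+ library 2. Over all genes, higher calls were 1436 with a mean RPKM of at least 5, 1707 without the libraries numbered 1 and 1225 to 2739 with 1 library left out; lower calls were 1564 with TMM-type scaling and 2336 to 3081 with 1 library left out. Other conjugation genes higher were 6 with the stricter filter, 23 with TMM-type scaling and 4 to 9 with 1 library left out; lower ones were 14 with TMM-type scaling, 99 with the replicate block and 38 to 59 with 1 library left out. Changes that turned sign, none of them called, were with TMM-type scaling Ube2a (0.28), Ube2d3 (0.0038), Ube2e3 (0.0083), Ube2f (0.21), Ube2j1 (0.15), Ube2q1 (0.18), Ube2s (0.019) and Ube2z (0.28), with quantile normalization Ube2a (0.091) and Ube2z (0.033), and without the libraries numbered 1 Ube2z (0.017). With 1 library left out, the change ran from -0.22 to 0.056 for Ube2a, -0.12 to 0.30 for Ube2c, -0.56 to 0.016 for Ube2d2a, -0.51 to 0.21 for Ube2q1, -0.76 to 0.19 for Ube2s and -0.29 to 0.17 for Ube2z. The cause was not tested. Pseudocount 0.1, no trend and no filter moved no tested member past the threshold either way; without a filter Ube2ql1 was tested too and was higher. With 3 libraries a group and unstated read totals, differences under about the 95% intervals given were not detectable.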
